A study of Homo sapiens with 15 samples.

Results

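The genes described here encode the sliding clamp of replication and the proteins that load it, prime DNA and process the lagging strand. They are PCNA, RFC2, RFC3, RFC4, RFC5, FEN1, PRIM1, PRIM2, POLA1 and POLD3, taken by gene name from the deposited tables with the 3' end regions of a gene summed. All 10 were found among the 19531 gene names of the tables.

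The libraries came from U2OS, a human osteosarcoma cell line, and were made by SLAM-seq, in which 4-thiouridine built into new RNA is alkylated and then read as a T-to-C change. Per the labels, asynchronously growing cells took up 4-thiouridine and EdU, a thymidine analogue that marks replicating DNA, for 45 minutes, although the title of the series calls the cells synchronised. After glyoxal fixation, EdU signal and DNA content set the sorting gates G1, Early_S, Late_S and G2, the last also written as G2/M, and 500 ng of RNA per sample went into 3' end libraries. The fifth group, No_alkylation, left out the chemical step, and the labels do not say which cells it held. Each of the 5 groups had 3 libraries, and the labels do not say whether these came from separate cultures, so p-values measure only the spread between libraries. All groups share the same line and the same label, and the line is itself a tumour line.

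The libraries held 16096695 to 21803972 reads in the counted regions. Reads with T>C conversions numbered 1812606 to 4037464 in the 12 alkylated libraries and 175212 to 182253 in the 3 No_alkylation libraries. Per library, T>C reads made up 21.5% to 22.8% of reads in G1, 17.9% to 18.9% in Early_S, 9.95% to 10.1% in Late_S, 9.77% to 10.4% in G2 and 1.00% to 1.03% in No_alkylation. Of 10 mesenchymal and bone markers, 9 were in the tables, with a summed level of 5254 to 6246 CPM in the sorted phases. VIM, COL1A1 and SPARC carried most of it. COL1A2 (0.14 CPM) and SP7 (0.022 CPM) were close to absent, and IBSP was at 0. Of 5 blood markers, CD3E, LYZ and HBB were at 0 in all of these libraries. The 5 epithelial markers summed to 19 to 47.5 CPM, and their part in the results was not tested. CLDN4 (8.99 CPM), EPCAM (8.83) and KRT14 (7.44) lay above RUNX2 and ALPL, and CDH1 (3.30) and KRT5 (0.25) below them. The gates were checked with CCNB1, the mitotic cyclin, which had 335, 346 and 353 CPM in G2 libraries, against 115, 128 and 149 CPM in G1 libraries (edgeR quasi-likelihood, adjusted p = 5.37e-16). The mitotic kinase gene PLK1 (log2 change 2.0) and the mitotic activator gene CDC20 (1.03) were also higher in G2 than in G1, and the G1/S cyclin gene CCNE1 was lower in G2 (-0.58). CCNE1 was highest in the G1 gate and fell in Early_S against G1 by 0.31 ± 0.10 (SE, adjusted p = 0.0178). In bulk samples, fewer cells with a transcript and less transcript per cell cannot be told apart.

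PCNA forms a ring around DNA that tethers the replicative polymerases, and it is opened and closed by replication factor C, whose small subunits RFC2 to RFC5 form one complex with the large subunit RFC1. The primase subunits PRIM1 (catalytic) and PRIM2 (the large, regulatory subunit) work with POLA1, the catalytic subunit of DNA polymerase alpha, to start each Okazaki fragment. POLD3 is an accessory subunit of DNA polymerase delta, which extends these primers, and FEN1 is the nuclease that removes the displaced flap before ligation. Many genes of DNA replication are known to be transcribed under E2F factors from late G1.

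Promoters are shown for 4 of the genes to set the letters of the E2F-type and CCAAT motifs beside PCNA, which fell, and PRIM1, which rose, in Early_S against G1 in total RNA, and beside the other members with an E2F-type match. They are 300-base windows that lie mostly before the start of the gene in RefSeq on GRCh38.p14, on the strand of the gene, 5′ to 3′, and capitals mark the motif matches.
PCNA (chr20:5126573-5126872, minus strand): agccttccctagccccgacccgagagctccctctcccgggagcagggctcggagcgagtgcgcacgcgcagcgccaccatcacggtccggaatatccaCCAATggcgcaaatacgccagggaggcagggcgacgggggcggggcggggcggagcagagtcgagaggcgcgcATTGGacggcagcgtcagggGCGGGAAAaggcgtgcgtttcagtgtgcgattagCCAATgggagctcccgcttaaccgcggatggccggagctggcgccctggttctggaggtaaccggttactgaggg
RFC3 (chr13:33817899-33818198, plus strand): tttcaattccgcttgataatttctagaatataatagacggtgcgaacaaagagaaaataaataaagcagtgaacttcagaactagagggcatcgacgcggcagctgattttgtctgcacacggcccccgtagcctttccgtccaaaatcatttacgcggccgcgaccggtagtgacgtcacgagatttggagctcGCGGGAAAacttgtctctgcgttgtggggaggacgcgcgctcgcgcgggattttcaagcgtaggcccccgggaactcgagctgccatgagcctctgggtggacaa
POLA1 (chrX:24693668-24693967, plus strand): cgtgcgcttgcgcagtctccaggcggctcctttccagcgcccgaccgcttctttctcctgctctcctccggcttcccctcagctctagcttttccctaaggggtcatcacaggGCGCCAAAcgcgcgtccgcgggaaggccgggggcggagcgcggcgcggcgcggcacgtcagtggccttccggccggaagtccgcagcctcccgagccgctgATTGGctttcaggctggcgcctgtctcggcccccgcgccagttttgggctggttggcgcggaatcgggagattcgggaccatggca
PRIM1 (chr12:56752274-56752573, minus strand): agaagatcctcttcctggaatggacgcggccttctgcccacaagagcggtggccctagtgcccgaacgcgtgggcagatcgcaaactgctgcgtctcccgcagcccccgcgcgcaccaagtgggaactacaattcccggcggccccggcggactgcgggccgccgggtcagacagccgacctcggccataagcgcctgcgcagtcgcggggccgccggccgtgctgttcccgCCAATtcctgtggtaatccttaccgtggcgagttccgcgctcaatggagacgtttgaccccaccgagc
The E2F-type letters searched were TTTGGCGC, TTTCCCGC, TTTGGCGG, TTTCGCGC, TTTGCCGC and TTTCCCGG on both strands, and 5.33% of the 35116 promoters in the RefSeq table held at least 1 of them. The table held 11 windows for 9 of the members, with 2 each for PCNA and PRIM2, and POLD3 was not matched. An E2F-type match lay in 3 of these 11 windows. It stood 59 bases before the start in PCNA, 55 before it in RFC3 and 137 before it in POLA1. CCAAT, also on both strands, occurred in 5 of the 11 windows and in 34.6% of all promoters. It occurred 3 times in the PCNA window shown, and 1 time in PRIM1, 18 bases before the start. The CHR letters TTTGAA and TTCGAA occurred in 16.4% of all promoters and in 0 of the 11. These matches describe letters only, and their relation to the levels below was not tested.

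Steady-state levels were compared first, asking which members change in total RNA between sorted phases. Values are CPM, all reads of a gene scaled to a common library total (with TMM factors and not per length, so levels are compared between phases and not between genes). Across the 4 phases, 6 of the 10 members differed by the edgeR quasi-likelihood F-test at an adjusted p under 0.05, against 34.1% of all 13755 genes tested. They were PCNA (adjusted p = 5.28e-11), PRIM1 (2.97e-06), RFC4 (0.00063), FEN1 (0.00241), PRIM2 (0.00983) and RFC3 (0.0392). PCNA, RFC4, FEN1 and RFC3 had their highest mean in G1, whereas the primase genes PRIM1 and PRIM2 had their lowest mean there. RFC2, RFC5, POLA1 and POLD3 did not pass.

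**Figure D1:**
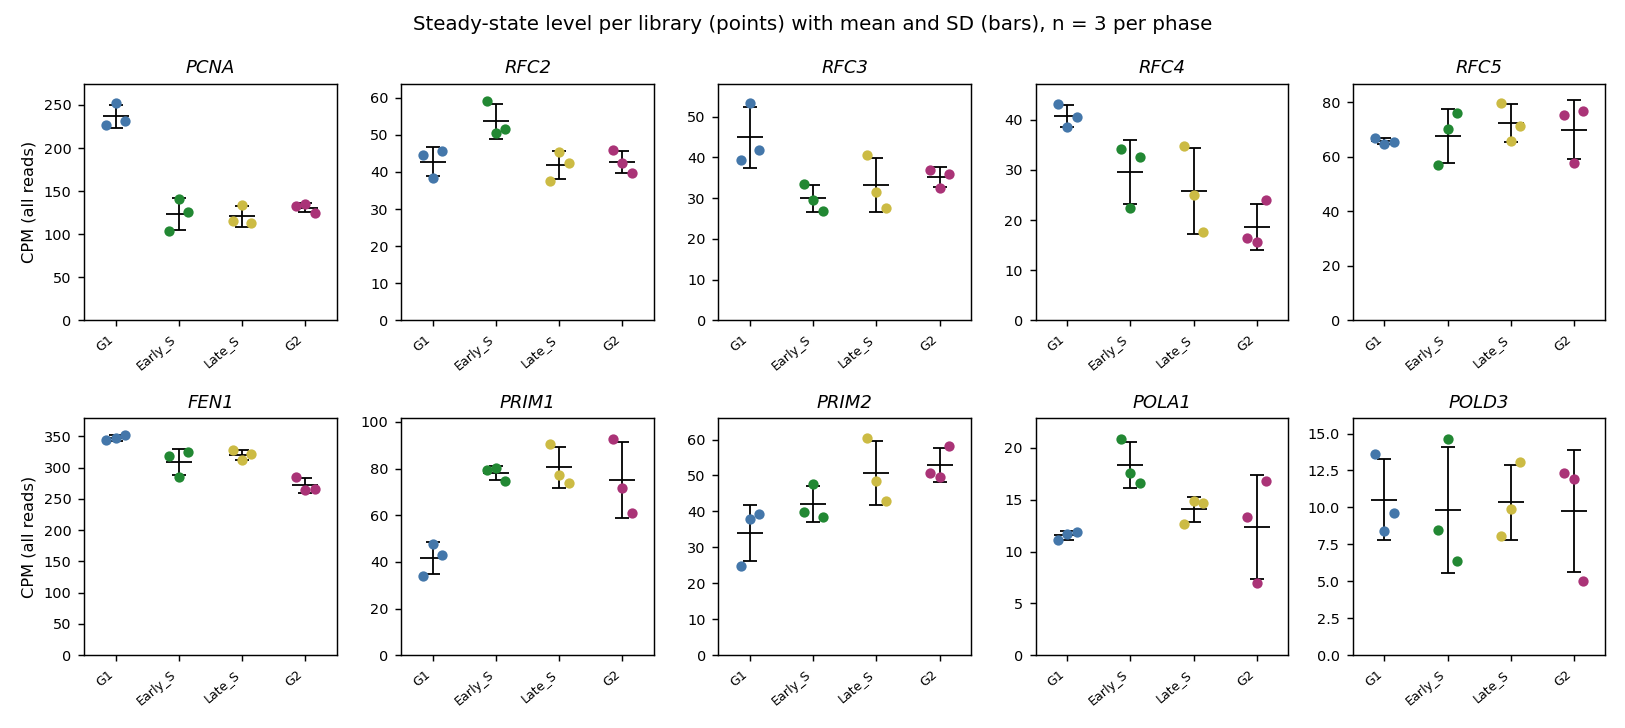
Steady-state level of each of the 10 genes in CPM of all reads (y axes from 0, each with its own scale) in the 12 sorted, alkylated libraries by phase (x axis). Points are libraries and bars are means with SD (n = 3 per phase); PCNA stood at 103 to 141 CPM in the 9 later libraries and at 227 to 252 CPM in G1, and PRIM1 at 60.8 to 92.8 CPM in the later libraries and at 34.0 to 47.8 CPM in G1.

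PCNA, the clamp itself, was counted in 1 region at its 3' end, chr20:5114953-5115282 (hg38, minus strand). It had 227, 252 and 231 CPM in G1, 103, 141 and 126 CPM in Early_S, 115, 134 and 113 CPM in Late_S, and 133, 135 and 125 CPM in G2. The G1 libraries lay above all 9 others, which overlapped among themselves. PCNA fell in Early_S against G1 by 0.94 ± 0.10 on the log2 scale (SE, adjusted p = 2.87e-09) and in G2 against G1 by 0.86 ± 0.10 (adjusted p = 2.09e-08). Late_S against Early_S (-0.03 ± 0.10) and G2 against Late_S (0.12 ± 0.10) did not pass.

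Of the small subunits of the clamp loader, RFC4 and RFC3 were called across phases. RFC4 had 43.1, 38.5 and 40.6 CPM in G1, 34.1, 22.3 and 32.6 CPM in Early_S, 34.7, 25.1 and 17.7 CPM in Late_S, and 16.4, 15.7 and 24 CPM in G2. Its means ran downwards through the phases, and the G2 libraries lay below all G1 libraries. RFC4 fell by 1.12 ± 0.22 on the log2 scale in G2 against G1 (SE, adjusted p = 0.000126), while no single step between neighbouring phases passed. RFC3 had 39.5, 53.5 and 41.8 CPM in G1, 33.4, 29.4 and 27.0 CPM in Early_S, 40.5, 31.6 and 27.6 CPM in Late_S, and 37.0, 32.4 and 36.0 CPM in G2. It fell in Early_S against G1 by 0.58 ± 0.18 (adjusted p = 0.0124), and the Late_S and Early_S libraries overlapped. This call ended without G1 replicate 2 (-0.45, adjusted p = 0.0986) or Early_S replicate 3 (-0.51, adjusted p = 0.0609), and the call across phases ended without any 1 of 6 libraries, with adjusted p up to 0.281.

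RFC2 and RFC5 did not pass in any steady-state comparison between phases. RFC2 had 44.4, 38.3 and 45.5 CPM in G1, 59.1, 50.4 and 51.5 CPM in Early_S, 37.7, 45.3 and 42.5 CPM in Late_S, and 45.8, 42.3 and 39.8 CPM in G2. All 3 Early_S libraries lay above the other 9, but the difference from G1 was 0.33 ± 0.15 (adjusted p = 0.11). RFC5 had 66.9, 64.7 and 65.4 CPM in G1, 56.9, 70.1 and 75.9 CPM in Early_S, 79.8, 65.8 and 71.3 CPM in Late_S, and 75.5, 57.6 and 76.8 CPM in G2. Its phases overlapped throughout, and its largest mean step, 0.10 ± 0.14 for Late_S against Early_S, was smaller than its SE.

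Both primase genes had their lowest mean in G1. PRIM1 had 34.0, 47.8 and 43.1 CPM in G1, 79.4, 80.2 and 74.6 CPM in Early_S, 90.6, 77.1 and 73.8 CPM in Late_S, and 92.8, 71.6 and 60.8 CPM in G2. Every library of the 3 later phases lay above every G1 library. PRIM1 rose in Early_S against G1 by 0.91 ± 0.15 on the log2 scale (SE, adjusted p = 5.98e-06) and in G2 against G1 by 0.85 ± 0.14 (adjusted p = 1.8e-05). PRIM2 had 24.9, 37.9 and 39.2 CPM in G1, 39.9, 47.7 and 38.4 CPM in Early_S, 60.4, 48.5 and 43.0 CPM in Late_S, and 50.6, 49.6 and 58.2 CPM in G2. Early_S overlapped G1, and G2 lay above it in all 3 libraries, with a rise of 0.63 ± 0.17 (adjusted p = 0.00488). Without G1 replicate 1, the lowest library, the log2 change was 0.45 (adjusted p = 0.0783) and the call across phases ended (adjusted p = 0.0992). Of the PRIM2 reads, 32.2% were multimapped, which the authors' counting can assign to a near-identical copy, so its level is uncertain. With multimapped reads left out, PRIM2 was still called across phases and in G2 against G1.

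FEN1, the flap nuclease, had 343, 347 and 352 CPM in G1, 318, 285 and 324 CPM in Early_S, 328, 312 and 322 CPM in Late_S, and 286, 265 and 265 CPM in G2. Its G1 libraries were highest and spread over less than 10 CPM, and the G2 libraries lay below all G1 and Late_S libraries. It fell in G2 against G1 by 0.36 ± 0.08 on the log2 scale (SE, adjusted p = 0.000469). The difference of G2 against Late_S was -0.24 ± 0.08 (adjusted p = 0.235).

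The polymerase subunits had the fewest reads, 133 to 418 per library for POLA1 and 101 to 286 for POLD3 in the sorted phases. POLA1 had 11.1, 11.7 and 11.9 CPM in G1, 20.9, 17.6 and 16.6 CPM in Early_S, 12.7, 14.9 and 14.6 CPM in Late_S, and 13.3, 6.95 and 16.8 CPM in G2. The Early_S libraries lay above all G1 and Late_S libraries, with a difference from G1 of 0.67 ± 0.28 (SE, adjusted p = 0.0769). In the fit without G2 replicate 2, POLA1 was called up in this contrast. POLD3 had 13.6, 8.39 and 9.62 CPM in G1, 8.48, 14.6 and 6.41 CPM in Early_S, 8.08, 9.92 and 13.1 CPM in Late_S, and 12.3, 11.9 and 5.01 CPM in G2. Its 4 phases overlapped, and differences between phases were not detectable at this depth.

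By contrast, 3 of 10 members were called in Early_S against G1 (1 up and 2 down), against 24.3% of all genes. An unadjusted p under 0.05 by edgeR was found for 7 of 10 there, counting the 3 called. The median log2 change of the members was -0.03, and that of all genes 0.00. In Late_S against Early_S, 0 of 10 were called, against 11.2% of all genes; 1 had an unadjusted p under 0.05, RFC2. In G2 against Late_S, 0 of 10 were called, against 0.145% of all genes, and 2 had an unadjusted p under 0.05, FEN1 and RFC4. In Early_S against G1, DESeq2 called FEN1 as well (1 up and 3 down). DESeq2 called 0 of 10 in Late_S against Early_S and 1 of 10, FEN1, in G2 against Late_S. In G2 against G1, 5 of 10 were called (2 up and 3 down), against 21.1% of all genes. Contrasts that use the same G1 or Early_S libraries are not independent of each other.

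**Figure D2:**
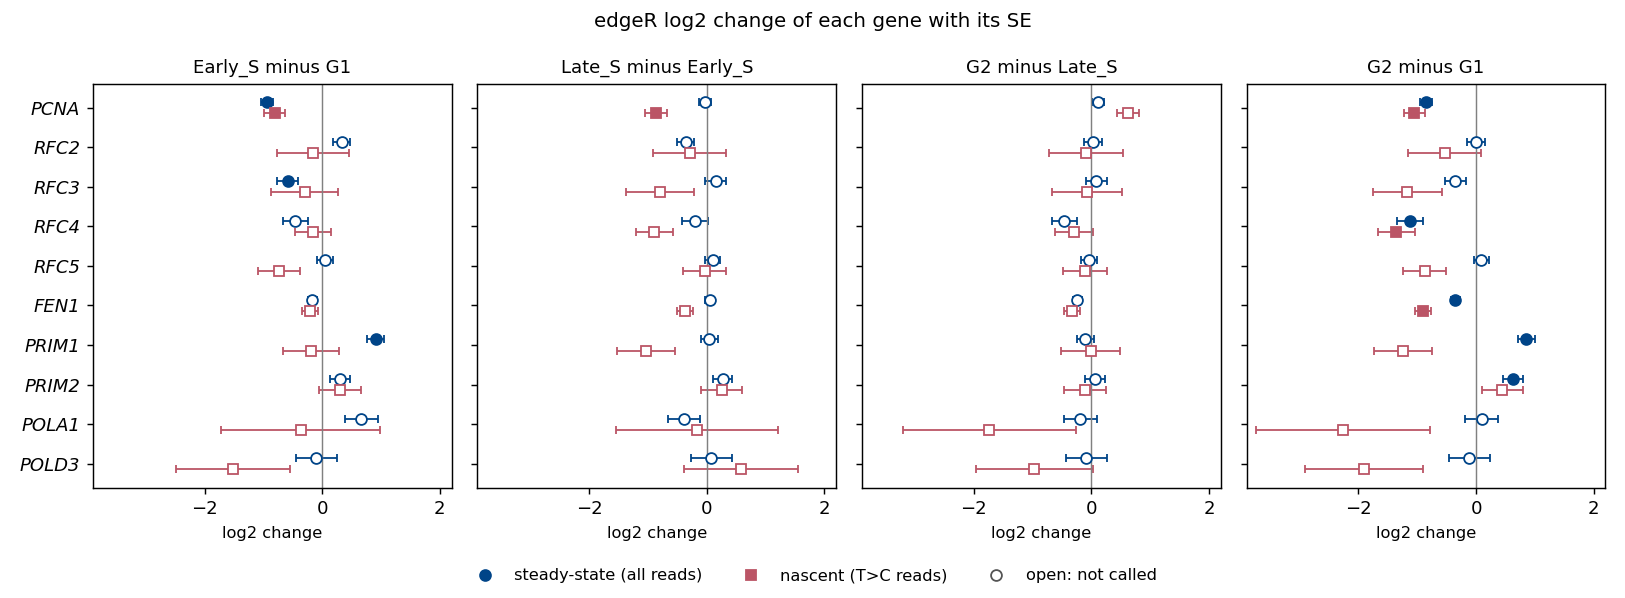
Log2 change of each gene (y axis) with its SE in 4 contrasts (panels), for all reads (blue circles) and T>C reads (red squares), with filled symbols called at an adjusted p under 0.05. In the steady-state data PCNA and RFC3 fell and PRIM1 rose in Early_S against G1, and PCNA, RFC4 and FEN1 fell in both kinds of reads in G2 against G1.

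T>C reads were compared next as a measure of RNA made during the 45 minutes of labelling. They were scaled to T>C reads as a whole, so a change is relative to the other new RNA of the same library. Across the phases, 3 of 10 members were called, PCNA (adjusted p = 1.22e-06), FEN1 (7.2e-05) and RFC4 (0.00582), against 10.4% of all 11474 genes tested. All 3 had their highest mean in G1.

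New PCNA RNA had 432, 451 and 397 CPM of T>C reads in G1, 200, 280 and 252 CPM in Early_S, 102, 173 and 124 CPM in Late_S, and 220, 194 and 205 CPM in G2. Unlike the steady-state level, it had a further step down in Late_S, whose 3 libraries lay below all others. It fell in Early_S against G1 by 0.81 ± 0.18 on the log2 scale (SE, adjusted p = 0.00573) and in Late_S against Early_S by 0.87 ± 0.19 (adjusted p = 0.00534). The first of these ended without Early_S replicate 1 (-0.68, adjusted p = 0.0593) and the second without Late_S replicate 1 (-0.71, adjusted p = 0.0502). The difference of G2 against Late_S was 0.63 ± 0.19 (adjusted p = 0.22), and G2 lay below G1 with a log2 change of -1.05 ± 0.18 (adjusted p = 0.000282).

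New FEN1 RNA had 601, 624 and 619 CPM in G1, 541, 539 and 518 CPM in Early_S, 422, 453 and 363 CPM in Late_S, and 284, 312 and 385 CPM in G2. The Early_S libraries lay below all G1 libraries and above all Late_S libraries, but neither step between neighbouring phases passed. It fell in G2 against G1 by 0.91 ± 0.13 (adjusted p = 2.73e-05). New RFC4 RNA had 93.5, 95.8 and 102 CPM in G1, 101, 72.8 and 86.9 CPM in Early_S, 35.3, 58.8 and 46.0 CPM in Late_S, and 30.3, 48.7 and 35.2 CPM in G2. Late_S and G2 overlapped and lay below both earlier phases, and G2 fell against G1 by 1.35 ± 0.32 (adjusted p = 0.00605).

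New RNA of the other 7 members was not called by edgeR in any comparison between phases, while DESeq2 called PRIM1 across phases (adjusted p = 0.0282). Scaled by all reads of the library in place of T>C reads, which keeps the overall difference in labelling, 8 of 10 were called across phases, and 8 in G2 against G1, all down. That scaling also moved the median log2 change of all genes in G2 against G1 to -1.26, with 60 genes called up and 6113 down, against 504 up and 333 down when scaled to T>C reads. PRIM1 had 36.1, 50.9 and 35.1 CPM in G1, 30.1, 38.5 and 38.0 CPM in Early_S, 8.82, 22.6 and 20.4 CPM in Late_S, and 13.8, 20.4 and 17.4 CPM in G2. Its G1 and Early_S libraries overlapped, and the later phases lay below both, with -1.24 ± 0.49 in G2 against G1 (adjusted p = 0.138). PRIM2 had T>C means of 41.7 ± 12, 51.5 ± 10.9, 61.3 ± 14.3 and 56.9 ± 7.45 CPM in G1, Early_S, Late_S and G2 (SD, n = 3). RFC5 had 78.8 ± 12.4 CPM in G1 and 47.5 ± 12.3, 46.2 ± 10.4 and 42.8 ± 15.1 CPM in the later phases, with -0.87 ± 0.37 in G2 against G1 (adjusted p = 0.169). RFC3 in G2 rested on 1 library, with 65.5 CPM in replicate 1 and 7.36 and 9.35 CPM in the other 2, and without replicate 1 RFC3 was called across phases (adjusted p = 0.00558). Those other 2 had 13 and 21 T>C reads, or 2.09% and 2.66% of RFC3 reads. Without alkylation RFC3 had 2.59%, 0.18% and 0.83%, so these G2 values lie close to background. RFC2 likewise had 2.26 CPM in G2 replicate 2 and 35.2 and 31.6 CPM in the other 2. In replicate 2 this was 0.49% of RFC2 reads, against 0.45%, 0.39% and 0% without alkylation. POLA1 had 0 to 55 T>C reads per alkylated library and POLD3 2 to 95, so neither could be compared closely.

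In Early_S against G1, 1 of 10 members was called in T>C reads, against 5.17% of all genes, and 1 in Late_S against Early_S, against 3.53%; both calls were PCNA. In G2 against Late_S, 0 of 10 were called, against 0.0523% of all genes, and 2 had an unadjusted p under 0.05, PCNA and FEN1; DESeq2 also called 0. In G2 against G1, 3 were called, all down, against 7.29% of all genes. The median log2 change of the members in G2 against G1 was -1.11, and that of all genes -0.03.

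The labelled share, the percentage of a gene's reads that carry T>C conversions, sets new RNA against all RNA of the same gene. Without the chemical step, the members had shares of 0 to 3.20% per library, and pooled shares of 0.26% to 1.51% against a median gene of 0.50%. With it, 9 of 10 members stood above that background (edgeR quasi-likelihood, adjusted p at most 0.00292), against 84.4% of all 12909 genes tested. POLA1 did not pass, with a log2 difference of 1.64 ± 1.20 (SE, adjusted p = 0.193).

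**Figure D3:**
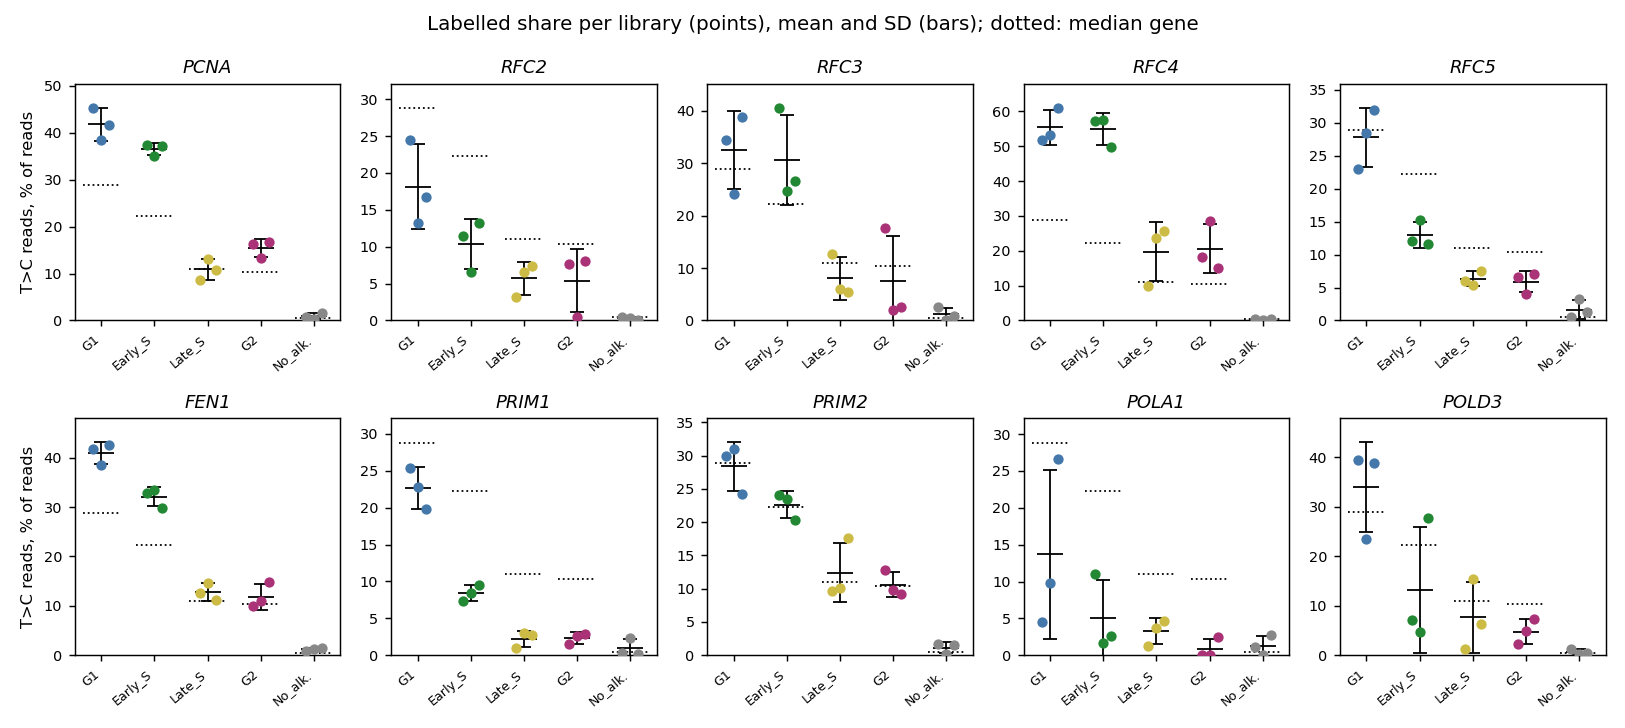
Labelled share of each gene, in percent of its reads (y axes from 0, each with its own scale), in all 15 libraries by group (x axis), with means and SD (n = 3) and the share of the median of 11474 genes in each group as a dotted line. RFC4 and PCNA lay above the median gene in G1 and Early_S and PRIM1 below it in all 4 phases. Without alkylation the members had 0% to 3.20% per library, which overlaps the shares of PRIM1 in Late_S and G2.

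Shares fell with the overall labelling of the libraries. The pooled share of the median gene was 28.8% in G1 and 22.2% in Early_S, and 11% in Late_S and 10.4% in G2. RFC4 had the highest share of the members in each of the 4 phases. Its libraries had 51.8%, 53.3% and 61.1% in G1, 57.4%, 57.7% and 49.8% in Early_S, 10.0%, 23.7% and 25.6% in Late_S, and 18.3%, 28.6% and 15% in G2. Pooled over the libraries of a phase, RFC4 exceeded 81.6%, 83.1%, 69.2% and 73.9% of genes in G1, Early_S, Late_S and G2. Replicate 1 of Late_S stood lowest, and without alkylation the 3 libraries had 0.32%, 0% of 620 reads (which allows up to 0.484%, taking 3 counts as the limit of a count of 0) and 0.44%.

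PCNA had 45.4%, 38.4% and 41.6% in G1, 37.4%, 35.1% and 37.2% in Early_S, 8.70%, 13.1% and 10.8% in Late_S, and 16.4%, 13.3% and 16.8% in G2. Late_S was lowest, and G2 lay above it in all 3 libraries. FEN1 had 41.8%, 38.5% and 42.6% in G1, 32.9%, 33.5% and 29.9% in Early_S, 12.7%, 14.7% and 11.1% in Late_S, and 9.89%, 10.9% and 14.9% in G2. Its Late_S and G2 libraries overlapped.

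PRIM1 had 25.4%, 22.8% and 19.8% in G1, 7.35%, 8.49% and 9.52% in Early_S, 0.96%, 2.97% and 2.73% in Late_S, and 1.47%, 2.63% and 2.92% in G2. The G1 libraries lay above all Early_S libraries, and these above all later ones, so the share was lower in the phases where the level was higher. In No_alkylation PRIM1 had 0.28%, 2.32% and 0.15%, a range that overlaps Late_S and G2. Pooled over a phase, PRIM1 exceeded 37.9% of genes in G1 and 13.7% in Early_S, but 3.73% in Late_S and 5.24% in G2.

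Whether the share of a gene changed relative to the other genes was tested with T>C and other reads each scaled to their own total. Across the phases, 3 of 10 members were called, PCNA (adjusted p = 0.00104), FEN1 (0.00224) and PRIM1 (0.0024), against 14.8% of all 11291 genes tested. On this scale the ratio of T>C to other reads of PCNA fell in Late_S against Early_S by 1.1 ± 0.20 (log2, SE, adjusted p = 0.000821), 1 of 10 called there, against 8.28% of all genes. FEN1 was also called in that contrast with RLE factors, with no filter and in 8 of the 12 fits that left out a library, which makes 2 of 10. In G2 against G1 the ratios of PRIM1 (-2.07 ± 0.45, adjusted p = 0.00339) and FEN1 (-0.81 ± 0.17, adjusted p = 0.00302) fell, 2 of 10 members against 8.87% of all genes. The median log2 change of all genes in this ratio was -0.18 in G2 against G1 and -0.10 in Late_S against Early_S. In Early_S against G1 0 of 10 were called by edgeR, against 5.37% of all genes, with 2 at an unadjusted p under 0.05, PRIM1 and RFC5. In G2 against Late_S 0 of 10 were called, against 0.0443%, with 1, PCNA, at an unadjusted p under 0.05.

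PRIM2 stayed close to the median gene, with pooled shares of 28.2%, 22.8%, 12.2% and 10.5% in G1, Early_S, Late_S and G2. The share of PRIM2 did not pass across phases (adjusted p = 0.985). RFC5 had 23.0%, 28.4% and 32.0% in G1, 12.1%, 15.2% and 11.5% in Early_S, 6.04%, 5.33% and 7.57% in Late_S, and 6.58%, 4.08% and 7.05% in G2, and did not pass (adjusted p = 0.101). POLA1 had 0% of 244 reads, 0% of 133 reads and 2.44% in G2, where the zeros allow shares of up to 1.23% and 2.26% by the same limit of 3 counts, against 4.57%, 9.86% and 26.6% in G1. Counting error alone gave 95% Wilson intervals at most 2.60 percentage points wide for FEN1 and 4.24 for PCNA, but up to 11.9 for POLA1 and 17.2 for POLD3. Reads carry no molecular identifiers, so these intervals and limits cover counting error only.

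Total levels also differed between alkylated libraries, taken as the mean of the 4 phases, and No_alkylation libraries for 4 of 10 members, against 43.5% of all 13972 genes tested. FEN1 (0.45 ± 0.06) and RFC2 (0.55 ± 0.13) were higher in alkylated libraries, and PCNA (-0.43 ± 0.08) and POLD3 (-1.30 ± 0.23) lower (log2, SE, adjusted p at most 0.000468). POLD3 had 5.04 to 14.6 CPM in the 12 alkylated libraries and 23.9, 25.8 and 25.8 CPM in the No_alkylation libraries, with no overlap. The cells of the No_alkylation libraries are not given, so chemistry and cell cycle phase cannot be told apart in this comparison.

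The regions counted for a gene were then compared, since most members have 1 main region and PRIM1 does not. PCNA, RFC5, FEN1 and POLA1 had 1 region each, and RFC2, RFC4 and PRIM2 had at least 95.9% of their reads in 1. The RFC5 region ends 9214 bases short of the RefSeq end of the gene. RFC3 had 85.5% of its reads in chr13:33836296-33837496 and 14.5% in chr13:33966126-33966558 (hg38, plus strand). Both lie within the RefSeq span of the gene, and end 139881 and 10819 bases short of its RefSeq end. POLD3 had 81.1% in chr11:74640767-74643057 and 18.9% in chr11:74668857-74669117, which end 26284 and 224 bases short of the RefSeq end.

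PRIM1 reads lay in 9 regions on the minus strand of chromosome 12. The last, chr12:56731596-56731734, which ends 16 bases short of the RefSeq end of the gene, held 35.2% of them. A 59-base region 12469 bases upstream, chr12:56744065-56744123, held 24%, one 2551 bases upstream held 16.2%, and a 23-base region 14449 bases upstream held 14.1%. In the last region the level was 28.6 ± 4.67 CPM in Early_S, against 15.6 ± 2.81 CPM in G1 (SD, n = 3). In the 59-base region it was 17.4 ± 6.30 CPM in Early_S, against 8.90 ± 6.27 CPM in G1. The 2 regions had pooled labelled shares of 30.6% and 10.6% in G1, 7.37% and 3.28% in Early_S, 2.85% and 1.17% in Late_S, and 5.87% and 0.09% in G2. Both thus had their highest labelled share and their lowest level in G1. The regions 2551, 9839 and 14449 bases upstream also had their highest share in G1. Those 6838 and 7698 bases upstream had it in Early_S, with 16.3% and 14.6%, against 13.6% and 0% of 30 reads in G1. The last region has 40 T positions and the 59-base region 15, and the part of this difference in the shares was not tested.

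**Figure D4:**
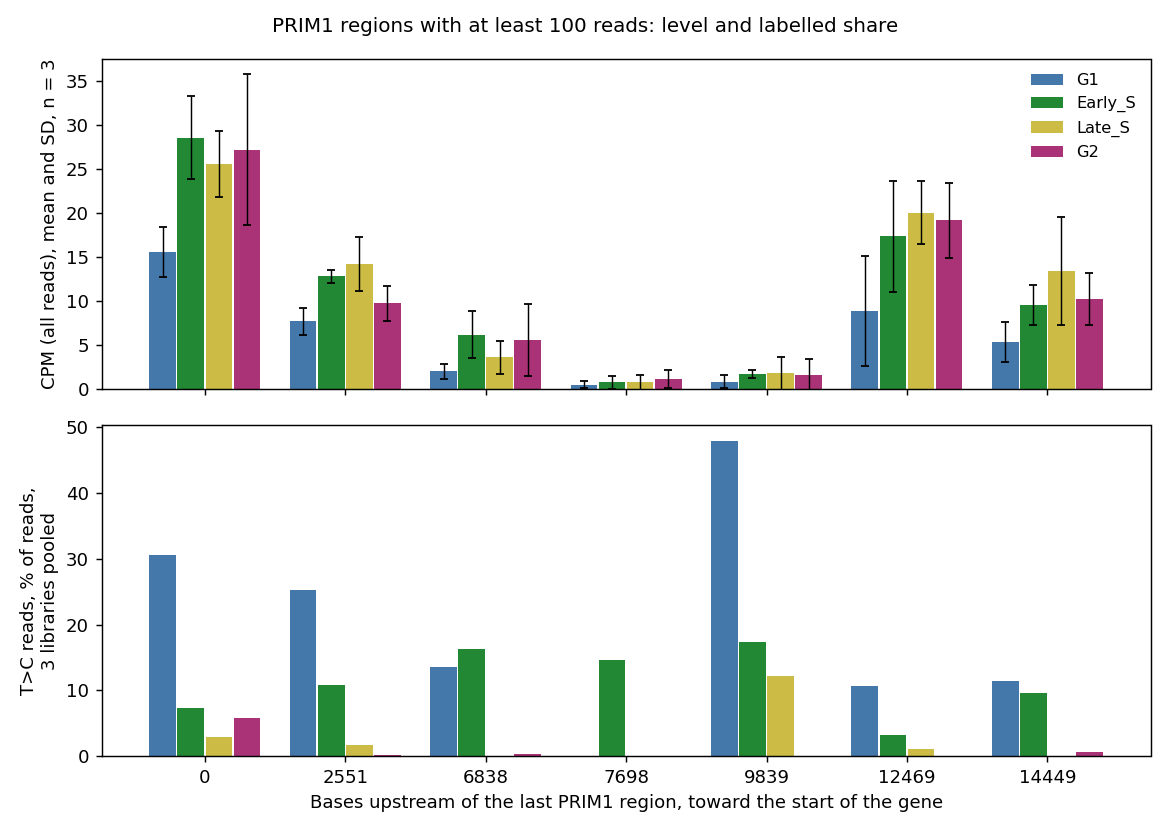
Level in CPM of all reads (top, mean and SD, n = 3) and pooled labelled share (bottom, T>C reads in percent of reads, 3 libraries pooled, no error drawn) of the PRIM1 regions with at least 100 reads, by phase, ordered by bases upstream of the last region (categories, not to scale). In the last region the level was 28.6 CPM in Early_S and 15.6 CPM in G1, while the share was 7.37% in Early_S and 30.6% in G1.

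The percentage of a gene's reads in its main region did not pass between phases for RFC3, PRIM1 or POLD3 (0 of 3, exact permutation test over 15400 groupings of the 12 libraries, two-sided, lowest adjusted p = 0.277). For PRIM1 the main region held 38.6%, 36.7%, 32.1% and 35.9% of reads on average in G1, Early_S, Late_S and G2. With T>C reads in place of all reads PRIM1 passed (adjusted p = 0.0327), with 80%, 100% and 94.9% of T>C reads in the main region in G2 libraries, against 58.2%, 46.2% and 49.3% in G1 libraries. Early_S libraries had 53.8%, 22.3% and 20.5%, and Late_S libraries 18.8%, 26.7% and 65.9%, mostly below G1. The G2 values rest on 25 to 39 T>C reads per library, and the lowest Late_S value on 16. In G2 the regions 2551, 6838, 12469 and 14449 bases upstream had pooled shares of 0.17%, 0.30%, 0.09% and 0.67%. Without alkylation they had 0.21%, 0%, 0.23% and 4.70%, so their T>C reads in G2 cannot be told from background. The main region had 5.87% in G2 and 0.88% without alkylation.

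Ratios of 2 members within a library do not depend on scaling between libraries, and 12 pairs of partners were compared by the same exact permutation test, adjusted over the 12. FEN1 to PCNA was the only pair called (adjusted p = 0.0405). Its log2 ratio of reads was 0.60, 0.46 and 0.61 in G1, 1.62, 1.02 and 1.36 in Early_S, 1.51, 1.22 and 1.52 in Late_S, and 1.1, 0.97 and 1.09 in G2. The G1 libraries lay below all 9 others. Since the fall of PCNA is in this ratio, it is not separate from the results above.

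**Figure D5:**
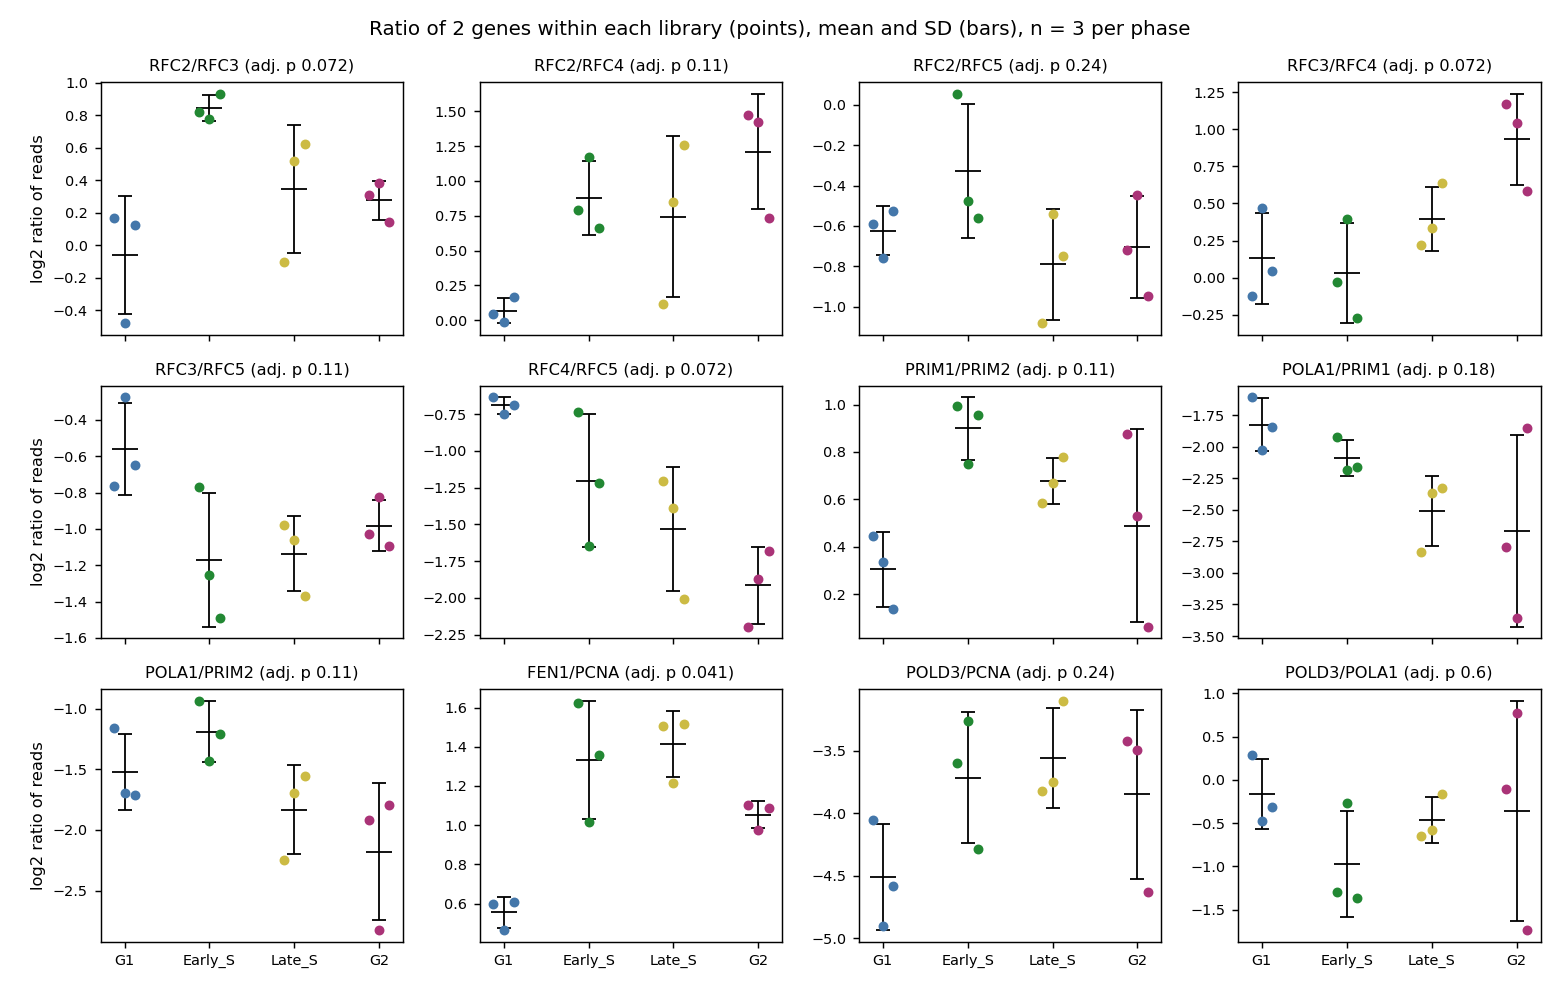
Log2 ratio of the reads of 2 genes within each library (y axes, each with its own scale) by phase for the 12 pairs compared, with means and SD (n = 3) and the adjusted p of an exact permutation test in the title of each panel. FEN1 to PCNA averaged 0.56, 1.33, 1.41 and 1.05 in G1, Early_S, Late_S and G2; RFC4 to RFC5 averaged -0.69, -1.20, -1.53 and -1.91 in the same order of phases.

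Of the 6 pairs among the small loader subunits, 0 were called, with a lowest adjusted p of 0.0717. The RFC4 to RFC5 log2 ratio was -2.20, -1.87 and -1.68 in G2 and -0.64, -0.75 and -0.69 in G1, with no overlap between these phases (unadjusted p = 0.0179). RFC2 to RFC3 averaged 0.84 in Early_S and -0.06 in G1 (unadjusted p = 0.0226), and RFC3 to RFC4 averaged 0.93 in G2 and 0.13 in G1 (unadjusted p = 0.0239). PRIM1 to PRIM2 averaged 0.31, 0.90, 0.68 and 0.49 in G1, Early_S, Late_S and G2 (adjusted p = 0.113). In T>C reads, however, the PRIM1 to PRIM2 log2 ratio passed (adjusted p = 0.0366), with -2.21, -1.35 and -1.57 in G2 and 0.21, -0.10 and -0.16 in G1. PRIM1 had only 16, 45 and 44 T>C reads in Late_S and 25, 36 and 39 in G2. Without alkylation it had 2, 25 and 2, and no background was subtracted from the ratio. Of the PRIM2 reads, 32.2% were multimapped, so this ratio is not a close measure of new RNA.

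Other fork genes were taken from a list of 25, of which 23 were in the tables and tested. Across phases 12 of the 23 differed in steady-state level, beside the 34.1% of all genes. In Early_S against G1, 12 of 23 were called, beside 24.3% of all genes: 8 rose (POLA2, POLD1, POLD2, RPA1, RPA3, RNASEH2A, RNASEH2C and POLDIP2) and 4 fell (MCM10, CHTF8, DSCC1 and ATAD5), with a median log2 change of 0.14. CHTF18, which forms an alternative clamp loader with CHTF8 and DSCC1, did not pass (0.35 ± 0.24, adjusted p = 0.33). ATAD5, which unloads PCNA, had 8, 0 and 5 reads in Early_S libraries, against 56, 88 and 46 in G1 libraries. In T>C reads 2 of 23 differed across phases, LIG1 and DSCC1, beside 10.4% of all genes.

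RFC1, the large subunit of the clamp loader, was highest in the later phases. It had 61.6, 71.4 and 61.3 CPM in G1, 62.3, 48.4 and 49.2 CPM in Early_S, 86.2, 104 and 100 CPM in Late_S, and 81.9, 100 and 78.8 CPM in G2. All Late_S and G2 libraries lay above all earlier ones, and RFC1 rose in Late_S against Early_S by 0.86 ± 0.13 on the log2 scale (SE, adjusted p = 7.82e-06), the comparison in which 0 of the small subunits were called. Whether the subunits differ in this was not tested directly.

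MCM10, which binds polymerase alpha at the fork, had 16.2, 19.6 and 16.9 CPM in Early_S, against 32.1, 37.2 and 36.2 CPM in G1 (log2 change -1.0 ± 0.19, adjusted p = 9.25e-05). RNASEH2A, the catalytic subunit of the enzyme that cuts RNA in RNA-DNA hybrids, had 69.6, 76.4 and 75.1 CPM in Early_S, against 50.1, 48.0 and 47.6 CPM in G1 (0.60 ± 0.14, adjusted p = 0.000895). Its partner RNASEH2B had 22.8, 15.9 and 21.7 CPM in Early_S, against 12, 13.9 and 16.5 CPM in G1, which overlap (0.50 ± 0.27, adjusted p = 0.187). POLD2, a subunit of polymerase delta beside POLD3, rose by 0.45 ± 0.09 in Early_S against G1 (adjusted p = 0.000164). CHTF8 fell by 0.47 ± 0.11 (adjusted p = 0.000935) in the same contrast.

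DSCC1 had 73.7, 69.6 and 64.5 CPM of T>C reads in G2, against 136, 138 and 138 CPM in G1 (-0.99 ± 0.29, adjusted p = 0.0326). RPA1, a subunit of the single-strand binding protein, did not pass in T>C reads across phases (adjusted p = 0.0556). LIG1, the ligase that seals Okazaki fragments, had T>C shares of 42.0% to 57.4% in alkylated libraries and 46.5%, 48.3% and 59.0% in No_alkylation libraries. These overlap, so its T>C reads are not read as new RNA here.

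The genes whose steady-state level was most like that of each member were named by Pearson correlation of log2 CPM over the 12 alkylated libraries among 11178 genes. These correlations are descriptions, because the points are 4 phases of 3 libraries that share the phase means. PCNA was most like SLAMF7 (r = 0.969), S100A2 (0.967) and VIM (0.958), and PRIM1 was most like IPO9 (0.961), NSMAF (0.945) and GRIPAP1 (0.936). FEN1 was most like LCMT2 (0.949), RFC4 like ELOVL5 (0.909) and PRIM2 like PPP4R3B (0.922). Among the members, PRIM1 and PRIM2 had r = 0.738, RFC4 and FEN1 0.787, PCNA and RFC3 0.698, and PCNA and PRIM1 -0.856. RFC5 had no correlation with another member above 0.359.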

How the data were processed

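SLAM-seq 3' end libraries of U2OS cells in 5 groups of 3 were analysed, grouped by their labels. Per the file headers, the authors counted reads with slamdunk 0.2.4, and the submitters' processing notes name hg38; each table lists 68625 regions named through a merged Ensembl release 90 annotation. Read counts and T>C read counts per region were used as deposited and summed here by gene name. The conversion rate, deposited as a fraction, was recomputed from the authors' columns of conversions and covered T positions, summed by gene. The authors' CPM column, whose scaling total also holds reads outside the regions, served only to find that total; CPM in the text was computed here. For the minimum of conversions per T>C read and for variant filtering, the settings were not given in the sources used here.

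The test for both kinds of counts was the quasi-likelihood test of edgeR 4.0.16 in R 4.3.3, on the 12 alkylated libraries together, after filterByExpr (minimum of 10, 15 in total) and with TMM scaling, Benjamini-Hochberg adjusted over all genes tested and called at 0.05, two-sided. All 10 members passed the filter in both layers, and PRIM1, RFC3 and POLD3 were also compared by region. Each SE was obtained by dividing the log2 change by the root of its F statistic. The labelled share was fitted with T>C and other reads as 2 columns per library and a term for each library; its 4 contrasts between phases were added to the planned test across phases. Libraries with and without alkylation were compared scaled by total reads, keeping genes whose reads averaged 10 or more and whose T>C reads summed to 10 or more. Ratios used counts plus 1. The fits were tested on simulated data. There the T>C reads were drawn from a binomial with no extra spread, so that test does not cover the spread of shares between these libraries. Depth was 16096695 to 21803972 reads per library. Libraries of a group differed beyond counting error in all 15 pairs (chi-square per degree of freedom 11.6 to 21.3).

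All 10 members, up to 6 steady-state and 4 nascent genes of the fork list by smallest p, and the 3 most alike genes of each member (mean of at least 50 reads, prior count 2) are named, with CCNE1, CCNB1, PLK1 and CDC20 as a check of the gates. The members and lists were chosen with earlier results of these data known. POLD4 and PCLAF of the fork list were not analysed here. Tried as alternatives were DESeq2 1.42.0, RLE scaling, no filter, the replicate number as a block, 1 region per gene, no multimapped reads, scaling by all reads, other pseudocounts in the ratios and leaving out each library.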

Additional observations from a re-analysis of the deposited data

How the results depend on the processing

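Of the values of single members, 246 kept their direction and their side of the threshold under alternatives other than a left-out library, and 673 did so under left-out libraries. In the same order, 13 and 2 passed newly, and 2 and 12 no longer passed without changing direction. A further 6 changed direction, all under alternatives other than a left-out library, and of these only RFC5 still passed. The replicate number was also fitted as a block: 6, 3, 0, 0 and 5 members were called in steady state, as without it, and in T>C reads 4 in place of 3 in G2 against G1, with RFC3 added. Deviations from the phase means correlated at -0.0166 to 0.0308 between same-numbered libraries (median 0.00829, 18 pairs). Between other-numbered libraries they correlated at -0.0328 to 0.0189 (median -0.0029, 36 pairs). Such small correlations cannot decide whether libraries of the same number were prepared together. By DESeq2, 1 member (FEN1) was called in steady-state G2 against Late_S in place of 0, and 2 (PCNA and RFC4) in T>C reads in Late_S against Early_S in place of 1. DESeq2 also added FEN1 in steady-state Early_S against G1, with 1 up and 3 down in place of 1 up and 2 down. In that contrast, POLA1 was added without G2 replicate 2, and RFC3 was lost without G1 replicate 2 or Early_S replicate 3. Leaving out libraries gave 0 to 1 members in T>C reads in Early_S against G1 (0 without Early_S replicate 1) and 0 to 1 in Late_S against Early_S (0 without Late_S replicate 1).

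Scaling T>C reads by all reads gave 8 members across phases in place of 3, 2 in Early_S against G1 in place of 1, 5 in Late_S against Early_S in place of 1, 8 in G2 against G1 in place of 3, and 9 for the labelled share across phases in place of 3. It keeps the overall fall in labelling, and the median log2 change of all genes was then -0.37, -0.87 and -1.26 in these 3 contrasts. With each kind of read scaled by its own TMM factors, which removes the labelling common to all genes, 2 members differed in labelled share from No_alkylation in place of 9. They were RFC4, which stayed above, and RFC5, which was called below (edgeR quasi-likelihood, adjusted p = 0.0276). In all, 6 log2 differences turned negative: RFC3 labelled share -0.47, RFC5 labelled share -1.44, FEN1 labelled share -0.023, PRIM1 labelled share -1.44, PRIM2 labelled share -0.31 and POLD3 labelled share -0.28. With T>C reads, 2 pair ratios were called in place of 1, and region use for 1 member in place of 0.

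Over all genes, steady-state G2 against Late_S had 20 calls, and 114 by DESeq2, 67 with no filter and 48 with the block. T>C reads across phases had 1193, and 1938 by DESeq2 and 6367 scaled by all reads. T>C reads in Early_S against G1 had 593, and 966 scaled by all reads, which were 195 up and 771 down against 423 and 170. In Late_S against Early_S they had 405, and 762 by DESeq2 and 3953 scaled by all reads (11 up and 3942 down against 197 and 208). In G2 against Late_S they had 6, and 115 by DESeq2 and 33 with no filter. In G2 against G1 they had 837, and 6173 scaled by all reads. The labelled share had 1676 across phases, 935 in Late_S against Early_S and 1002 in G2 against G1, and 7120, 5088 and 7238 scaled by all reads. It had 5 in G2 against Late_S, and 8 scaled by all reads and 32 with no filter. It had 10901 against No_alkylation, and 3731 with TMM factors of each kind (2696 up and 1035 down). Low T>C counts limit POLA1 and POLD3.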

Other observations

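The conversion rate, which gives converted T positions in percent of those sequenced, does not depend on how many conversions make a read a T>C read. It is given here as values with no test. The median gene had a pooled rate of 2.96% in G1 and 2.58% in Early_S. The rate was 1.35% for Late_S and 1.24% for G2, and 0.025% without alkylation. RFC4 had 6.12%, 6.72% and 7.22% in G1 libraries, 9.10%, 9.33% and 7.54% in Early_S libraries, 1.11%, 2.94% and 3.19% in Late_S libraries and 2.37%, 3.70% and 3.24% in G2 libraries. All Early_S libraries thus lay above all G1 libraries in this measure, whereas in the labelled share both phases overlapped. PCNA had 4.01%, 4.55% and 5.20% in Early_S libraries, against 4.40%, 3.20% and 3.91% in G1 libraries, which overlap. PRIM1 had 0.99%, 0.73% and 1.36% in Early_S libraries, against 3.05%, 2.35% and 2.44% in G1 libraries, with no overlap, the same order as in its labelled share.

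The second region of RFC3 had a pooled labelled share of 13.9% in Late_S, against 7.04% in its main region. In the other phases the second region had the lower share, with 18% against 33% in G1, 11.5% against 35% in Early_S and 2.71% against 8.20% in G2. It held 380 reads in the 3 Late_S libraries, and its library shares had an SD of 13 percentage points, and the difference between the regions was not tested.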
